A study of Mus musculus with 12 samples.

Results

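The vascular endothelial growth factor (VEGF) family was followed in mouse embryonic fibroblasts (MEF cells) through 10 genes chosen by name. They comprised 5 ligands (Vegfa, Vegfb, Vegfc, Figf and Pgf), 3 receptor tyrosine kinases (Flt1, Kdr and Flt4) and 2 neuropilins (Nrp1 and Nrp2). Of the 46763 gene names listed across both RNA-seq tables these were 10, and each table listed all of them, Figf under its newer symbol Vegfd in the 2-HG table. Of the 10, 7 averaged at least 1 RPM (reads per 1000000 reads on genes) in each table and were tested; Pgf, Kdr and Flt4 were below that level in both.

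Every library came from spontaneously immortalized MEF cells, derived from C57BL/6 embryos at day 13.5 of gestation. The first comparison set cells stably expressing a FLAG-tagged mutant human IDH2 from a retroviral vector (2MUT) against cells carrying the vector alone (Control), both kept after puromycin selection. The second set cells given 300 μM membrane-permeant 2-hydroxyglutarate for 24 h (2-HG(+)) against cells given DMSO for 24 h per the labels (2-HG(-)). The text of the study calls the latter group non-treated, and it lists the reagent as octyl-(R)-2HG. The 4 groups had 3 libraries each, and the 2 experiments shared no library. Mutant IDH2 makes 2-HG, so the comparisons asked how the gene products responded to the enzyme and to the metabolite in its membrane-permeant form. The 2MUT cells were a selected population with vector-driven expression, and nothing in the labels says that libraries of a group came from separate cultures, so the p-values measure only the spread between these libraries.

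VEGF ligands are secreted dimers that act on receptor tyrosine kinases, mostly of endothelial cells. Vegfa binds Flt1 and Kdr and drives the growth of blood vessels, Vegfb and Pgf bind Flt1, and Vegfc and Figf bind Flt4 and drive the growth of lymphatic vessels. Neuropilins are co-receptors that bind both VEGF ligands and class 3 semaphorins, and fibroblasts are known as a source of VEGF ligands for nearby vessels.

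The upstream sequences of 4 genes, picked by their changes described below, are shown: Vegfa, which was higher with 2-HG, and Vegfc, Figf and Nrp2, which were lower. They come from RefSeq (build GRCm38.p6), read 5′ to 3′ on the strand of the gene, with the base next to the RefSeq start last unless the window was shortened before an annotated exon. The windows are chr17:46032378-46032627 on the minus strand for Vegfa, chr8:54077282-54077531 on the plus strand for Vegfc, chrX:164373272-164373377 on the plus strand for Figf and chr1:62703067-62703284 on the plus strand for Nrp2. Capitals mark matches, on either strand, to the core of a hypoxia response element (ACGTG or GCGTG), to a GC box (GGGCGG) or to a cyclic AMP response element (TGACGTCA), and matches that touch or overlap form 1 run.
Vegfa: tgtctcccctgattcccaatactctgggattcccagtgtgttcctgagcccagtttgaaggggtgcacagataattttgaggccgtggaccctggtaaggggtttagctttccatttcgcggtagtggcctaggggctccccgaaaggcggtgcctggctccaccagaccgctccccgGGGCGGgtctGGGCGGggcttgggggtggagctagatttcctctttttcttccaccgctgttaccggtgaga
Vegfc: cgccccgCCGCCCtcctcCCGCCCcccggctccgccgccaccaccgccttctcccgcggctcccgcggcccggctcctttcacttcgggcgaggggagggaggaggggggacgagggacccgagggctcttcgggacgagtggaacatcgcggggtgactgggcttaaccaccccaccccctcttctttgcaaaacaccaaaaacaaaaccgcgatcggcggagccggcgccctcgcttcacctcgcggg
Figf: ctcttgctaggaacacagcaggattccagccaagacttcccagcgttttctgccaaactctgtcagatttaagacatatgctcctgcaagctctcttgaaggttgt
Nrp2: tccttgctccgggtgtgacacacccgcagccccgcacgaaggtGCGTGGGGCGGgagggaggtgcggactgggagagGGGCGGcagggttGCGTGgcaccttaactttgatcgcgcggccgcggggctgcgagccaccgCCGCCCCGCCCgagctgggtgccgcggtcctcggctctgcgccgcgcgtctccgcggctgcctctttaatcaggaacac
RefSeq has a second Vegfa start, whose window lies inside the gene and is not described here. In the full windows of 250 bases before the starts shown, Vegfa held 2 GC boxes and Vegfc held 2, while Figf, the least GC-rich of the 4 at 42.4% GC, matched none of these letters. Nrp2, at 72.4% GC, held 2 hypoxia response element cores and 5 GC boxes, of which the last lies beyond the stretch shown. Among all 32851 windows of this length in the RefSeq table, 38.6% held a hypoxia response element core, 32.7% a GC box and 1.55% a cyclic AMP response element. A match is a description of the letters and not a site.

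The libraries held 6472439 to 7313602 reads on genes in the 2MUT and Control table and 14959318 to 18363768 in the 2-HG table, so that 3 reads were worth 0.41 to 0.464 RPM in the first and 0.163 to 0.201 RPM in the second. Each gene was amplified as a short target before sequencing. The splice forms of Vegfa, of which the annotation (GENCODE M21, GRCm38) has 8 coding ones, and the soluble and membrane forms of Flt1 could therefore not be told apart. The RPM of different genes also depend on how well each target amplifies, so changes are tested within a gene below, and shares of a sum or places among all genes, where given, carry this dependence. The RNA came from bulk cultures, in which fewer cells expressing a gene and less RNA per cell cannot be told apart. Of the 10 fibroblast markers, Col1a1, Col1a2, Vim and Fn1 averaged at least 779 RPM in every group, but Lum averaged 0 to 1.24 RPM, Thy1 only 2.76 and 5.23 RPM without and with 2-HG, and Dcn 16.9 RPM in 2-HG(+). The 12 endothelial markers summed to between 1.2 and 4.33 RPM in any library, with Tie1 at 0 in all 12 libraries, and the 6 epithelial markers summed to at most 0.878 RPM.

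**Figure D1:**
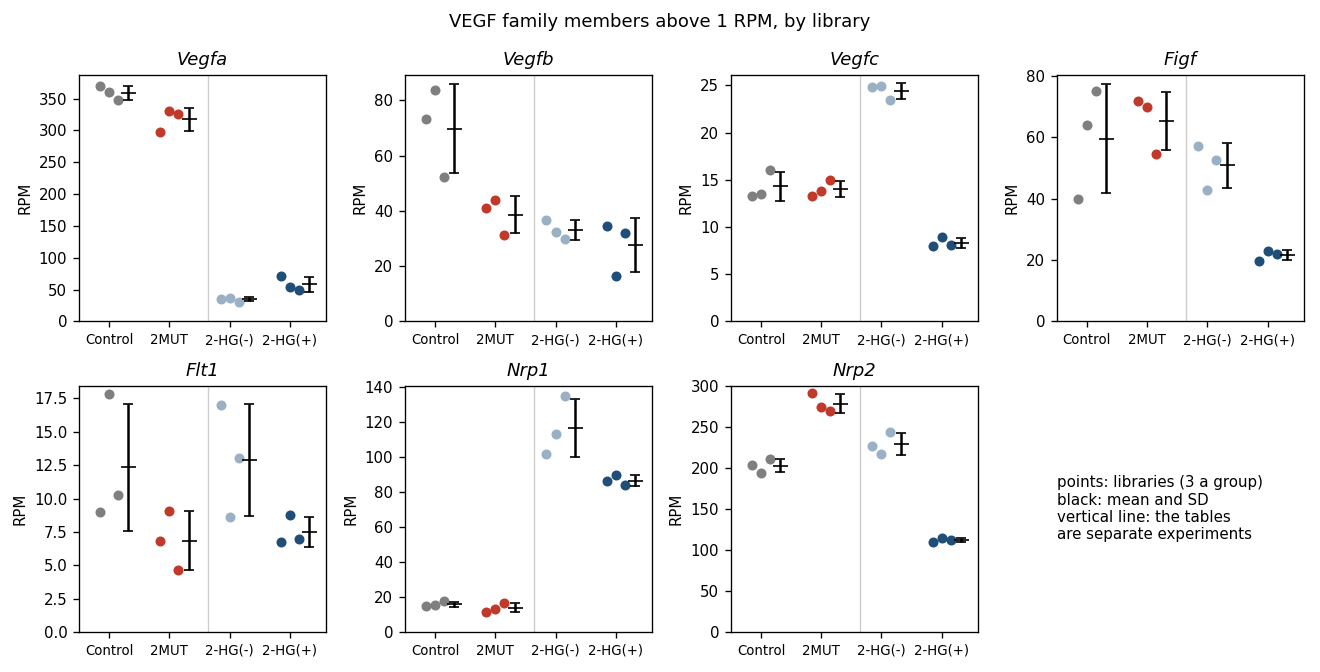
RPM of the 7 members that averaged at least 1 RPM, by library (points, 3 per group), with the mean and SD in black; the grey line separates the 2MUT experiment from the 2-HG experiment, and each panel has its own linear axis from 0. Vegfc, Figf, Nrp1 and Nrp2 lie lower in all 3 2-HG(+) libraries than in any 2-HG(-) library, and Vegfa lies higher. With 2MUT Nrp2 lies higher and Vegfa and Vegfb lower than in any Control library. The share of all genes without overlap was not counted.

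In 2MUT cells, 1 of the 7 tested members was higher (Nrp2), 1 was lower (Vegfb) and 5 did not pass the test, by limma with Benjamini-Hochberg adjustment over all 11065 genes tested at a threshold of 0.05. Across those genes 16.5% were called higher and 17.3% lower, so the members' calls stood close to the background of the comparison. The median log2 fold change of the members was -0.18, against 0.01 over all genes. With 2-HG, 1 of 7 was higher (Vegfa), 5 were lower (Vegfc, Figf, Flt1, Nrp1 and Nrp2) and 1 did not pass (Vegfb), where 16.1% of 10384 genes were called higher and 16.7% lower. Without 2-HG(-) replicate 3, or without 2-HG(+) replicate 3, 3 members were lower, since Flt1 and Nrp1 were not called. The median of the members was -0.67, against -0.02 over all genes. Fold changes from the fits are on the scale of log2(RPM + 1), which understates the change of low genes.

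Vegfa, the main ligand of blood vessel growth, rose with 2-HG. It stood at 35.8, 36.6 and 31.1 RPM in the 2-HG(-) libraries and at 71.7, 53.8 and 49.2 RPM in the 2-HG(+) libraries. The groups did not overlap, and the first 2-HG(+) library stood above the other two. Mean levels were 34.5 ± 2.98 and 58.2 ± 11.9 RPM (SD, n = 3), 1.69-fold higher in RPM, with a log2 fold change of 0.72 (SE 0.15) and a limma adjusted p of 0.00496. Under the unmoderated test of each gene by itself, the kind of test the study used, the adjusted p was 0.061.

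In the 2MUT experiment Vegfa was not called. The Control libraries gave 369.8, 359.8 and 347 RPM and the 2MUT libraries 297, 330.0 and 325 RPM. All 3 2MUT libraries were below the lowest Control library, but the log2 fold change of -0.18 had a 95% interval from -0.37 to 0.01 (limma adjusted p = 0.14). The change with 2MUT minus the change with 2-HG was -0.90 on the log2 scale, with an interval from -1.28 to -0.52 (limma adjusted p = 0.00126 over 9595 genes tested in both tables).

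Vegfc, a lymphatic ligand, fell with 2-HG. The 2-HG(-) libraries gave 24.8, 24.9 and 23.4 RPM and the 2-HG(+) libraries 8.00, 8.90 and 8.04 RPM. Every 2-HG(+) library was far below every 2-HG(-) library, and replicates lay close together. The level was 2.93-fold lower, with a log2 fold change of -1.45 (SE 0.12, limma adjusted p = 2.7e-05). In the 2MUT experiment Vegfc stood at 13.3, 13.5 and 16.0 RPM in Control and at 13.3, 13.8 and 15 RPM in 2MUT. These groups overlapped throughout, and the log2 fold change of -0.02 had an interval from -0.37 to 0.33.

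Figf, the other lymphatic ligand, also fell with 2-HG. It measured 57.1, 42.8 and 52.6 RPM in the 2-HG(-) libraries and 19.6, 22.9 and 22.1 RPM in the 2-HG(+) libraries. The groups were well apart, with the level 2.36-fold lower and a log2 fold change of -1.19 (SE 0.13, limma adjusted p = 0.000167). With 2MUT the values were 40.0, 63.8 and 74.9 RPM in Control and 71.8, 69.7 and 54.5 RPM in 2MUT. Here the Control libraries spread over the whole range of the 2MUT libraries, and the log2 fold change of 0.17 had an interval from -0.28 to 0.62.

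Vegfb, a ligand of Flt1, fell in 2MUT cells. It stood at 73.4, 83.6 and 52.2 RPM in Control and at 40.9, 43.8 and 31.2 RPM in 2MUT. The lowest Control library was above the highest 2MUT library, although both groups spread. The level was 1.80-fold lower, with a log2 fold change of -0.82 (SE 0.18, limma adjusted p = 0.00525, and 0.0935 under the unmoderated test). With 2-HG it gave 36.7, 32.5 and 29.7 RPM without and 34.4, 16.4 and 31.8 RPM with the metabolite. The second 2-HG(+) library was low and the others lay within the 2-HG(-) range, and the log2 fold change of -0.31 did not pass (interval -0.85 to 0.22, limma adjusted p = 0.35). Pgf, the other ligand of Flt1, had no read in the 6 libraries of the 2MUT experiment, which allows up to 0.41 to 0.464 RPM by counting error, and at most 2 reads in any library of the 2-HG experiment.

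The receptors were low. Kdr, the main signalling receptor of Vegfa in endothelium, had at most 2 reads in any library, and Flt4, the receptor of Vegfc and Figf, had 1 read in 1 2MUT library and none in the other libraries. At these depths neither could be told from 0, and the endothelial markers were near 0 in the same libraries. Flt1 was the one receptor above 1 RPM.

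Flt1 binds Vegfa, Vegfb and Pgf, and its soluble form holds ligand away from other receptors. It measured 17.0, 8.62 and 13.0 RPM in the 2-HG(-) libraries and 6.74, 8.78 and 6.99 RPM in the 2-HG(+) libraries. One 2-HG(-) library lay within the 2-HG(+) range, so the groups overlapped, and the log2 fold change was -0.67 (SE 0.22, limma adjusted p = 0.041). This call was lost without any 1 of 4 of the 6 libraries, with adjusted p values of 0.138 without 2-HG(-) replicate 1, 0.121 without 2-HG(-) replicate 3, 0.0863 without 2-HG(+) replicate 1 and 0.0935 without 2-HG(+) replicate 3. In the 2MUT experiment Flt1 stood at 9.03, 17.8 and 10.3 RPM in Control and at 6.80, 9.08 and 4.68 RPM in 2MUT. Control replicate 1 lay just under the highest 2MUT library, and the log2 fold change of -0.75 (SE 0.27) missed the threshold (limma adjusted p = 0.0549). It passed without Control replicate 1, Control replicate 3 or 2MUT replicate 2, with adjusted p values of 0.0443, 0.0322 and 0.038. Without Control replicate 2 the log2 fold change was -0.48 (adjusted p = 0.195), and it also did not pass without 2MUT replicate 1 or 3 (adjusted p = 0.108 and 0.198). The changes of Flt1 differed by -0.08 between the experiments, with an interval from -0.92 to 0.76.

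Nrp2, the neuropilin that binds Vegfc and Sema3f, moved in opposite directions. In the 2MUT experiment it stood at 204, 194 and 211 RPM in Control and at 292, 275 and 269.6 RPM in 2MUT. All 2MUT libraries were above all Control libraries, 1.37-fold in the mean, with a log2 fold change of 0.46 (SE 0.09, limma adjusted p = 0.00251). In the 2-HG experiment it measured 227, 217 and 244 RPM without and 110.0, 114 and 113 RPM with 2-HG. The groups were again apart, now 2.04-fold lower, with a log2 fold change of -1.02 (SE 0.09, limma adjusted p = 4.0e-05). The difference of these changes was 1.48 on the log2 scale, with an interval from 1.23 to 1.73 (limma adjusted p = 5.3e-07).

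Nrp1, which binds Vegfa and Sema3a, fell with 2-HG. It gave 102, 113 and 135 RPM in the 2-HG(-) libraries and 86.1, 89.8 and 84.0 RPM in the 2-HG(+) libraries. The groups did not overlap, and the log2 fold change was -0.42 (SE 0.12, limma adjusted p = 0.0214). The call was lost without 2-HG(-) replicate 3 (adjusted p = 0.0889) and without 2-HG(+) replicate 3 (adjusted p = 0.0596). The unmoderated test (adjusted p = 0.0846) and a fit that included the replicate number (adjusted p = 0.055) also lost the call of Nrp1. With 2MUT it stood at 14.9, 15.5 and 17.6 RPM in Control and at 11.7, 13.3 and 16.7 RPM in 2MUT, which overlapped, and the log2 fold change of -0.20 had an interval from -0.58 to 0.18. It ran from -0.33 without 2MUT replicate 3 to -0.096 without 2MUT replicate 1.

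**Figure D2:**
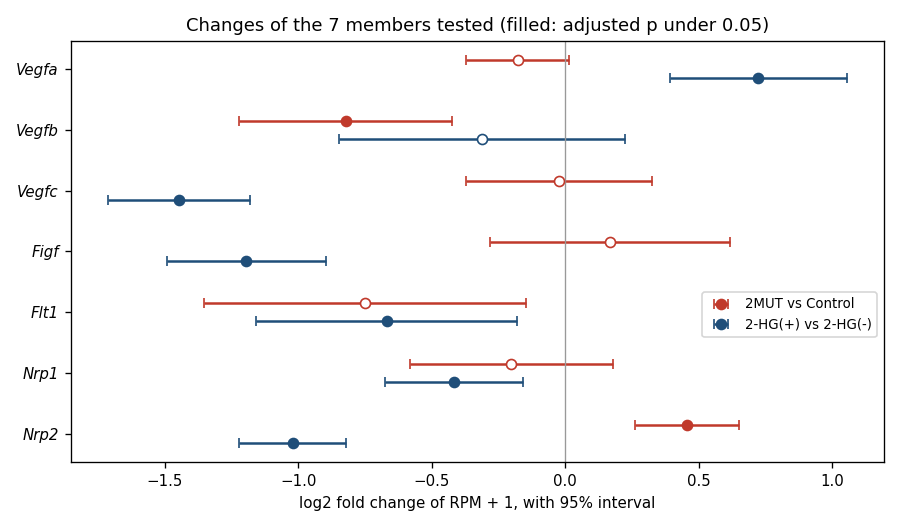
Log2 fold change of RPM + 1 with its 95% interval (horizontal axis) for the 7 tested members, in 2MUT against Control (red) and in 2-HG(+) against 2-HG(-) (blue), with filled points for adjusted p under 0.05. Nrp2 is 0.46 with 2MUT and -1.02 with 2-HG, and Vegfc is -0.02 and -1.45.

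The changes in the 2 experiments differed for 4 of the 7 members: Vegfa, Vegfc, Figf and Nrp2. The changes of 39.4% of all genes tested in both tables differed, so a difference between the experiments was frequent across the transcriptome. For Vegfc the difference was 1.43 (interval 1.05 to 1.80) and for Figf 1.36 (interval 0.77 to 1.96), with limma adjusted p values of 2.7e-05 and 0.0016. The other 3, Vegfb, Flt1 and Nrp1, had intervals that included 0, the widest of them that of Flt1. For Vegfb the difference was -0.51 and passed without 2-HG(+) replicate 2 (-0.83, limma adjusted p = 0.025).

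The starting levels of the members also stood far apart in the 2 tables. Mean Vegfa was 359 RPM in Control and 34.5 RPM in 2-HG(-), and mean Nrp1 was 16.0 and 117 RPM. Within their own tables, Vegfa lay at percentile 96.0 of the genes of at least 1 RPM in Control and at 51.3 in 2-HG(-), and Nrp1 at 37.7 and 81.7. Nrp2 held a like place, at 90.8 and 91.9. The tables listed different sets of entries, 43280 in that of 2MUT and Control and 23930 in that of 2-HG. They were normalised separately, so these values are set side by side without a test.

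Ratios of members within a library do not depend on its total. The log2 ratio of Vegfa to Vegfc was 0.50 ± 0.08 without and 2.79 ± 0.32 with 2-HG (SD, n = 3), and that of Vegfa to Figf was -0.55 ± 0.29 and 1.42 ± 0.39. In both ratios every 2-HG(+) library was above every 2-HG(-) library, and with 3 against 3 the two-sided exact permutation test gave its smallest possible p of 0.1. Vegfa made up 22.7 to 26.8% of the summed RPM of the 5 ligands without and 44.3 to 53.6% with 2-HG, while the sum itself was 137 to 154 RPM without and 102 to 134 RPM with it.

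In the 2MUT experiment the log2 ratio of Vegfa to Vegfc was 4.66 ± 0.19 in Control and 4.50 ± 0.08 in 2MUT, with overlapping libraries (exact permutation p = 0.3). The share of Vegfa was 69.1 to 74.5% in Control and 70.2 to 76.3% in 2MUT. The log2 ratio of Nrp2 to Nrp1 moved from 3.66 ± 0.10 in Control to 4.34 ± 0.31 in 2MUT and from 0.98 ± 0.15 to 0.38 ± 0.04 with 2-HG, each without overlap (exact permutation p = 0.1 in each). Over the 6 ratio comparisons the lowest adjusted p was 0.15.

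**Figure D3:**
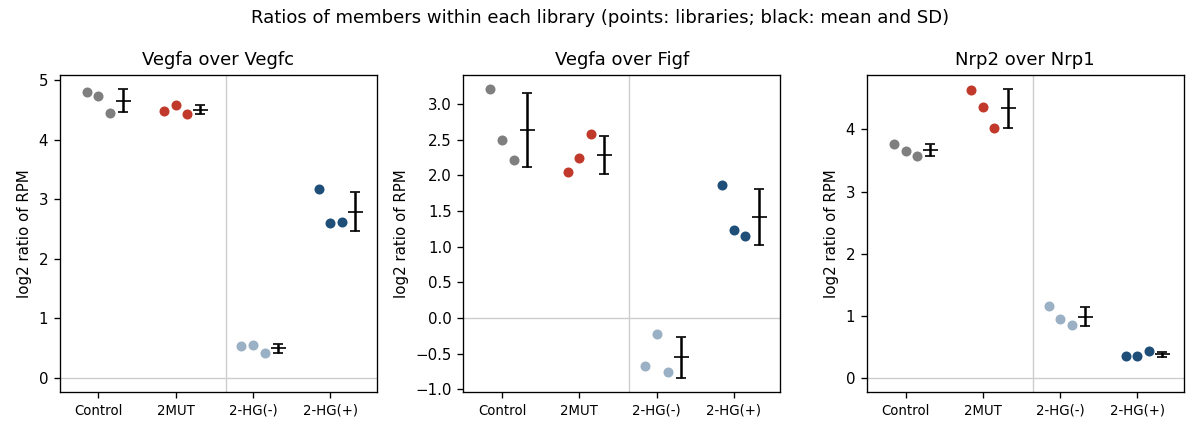
Log2 ratio of RPM within each library (vertical axis, points) for Vegfa over Vegfc, Vegfa over Figf and Nrp2 over Nrp1, with the mean and SD in black. The Vegfa ratios lie higher in every 2-HG(+) library than in any 2-HG(-) library, and the Nrp2 to Nrp1 ratio lies higher with 2MUT and lower with 2-HG.

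Genes around the members were read from lists of the pathway. Class 3 semaphorins share the neuropilins with VEGF, and plexins carry their signal into the cell. With 2-HG, 7 of the 8 tested semaphorin and plexin genes fell and 1 did not pass, with a median log2 fold change of -0.52 against -0.02 over all genes, of which 16.7% were called lower. Without 2-HG(-) replicate 1, or without 2-HG(-) replicate 3, the number that fell was 3. Among them Sema3f, a ligand of Nrp2, fell from 44.5 ± 5.29 to 27.5 ± 1.19 RPM (limma adjusted p = 0.00253), and Plxnd1 fell by 0.62 on the log2 scale. The call of Plxnd1 was lost without 2-HG(-) replicate 1 or 3 (adjusted p = 0.0518 and 0.0641) and under the unmoderated test (adjusted p = 0.0916). In 2MUT cells 2 of 9 rose and 4 fell (2 without Control replicate 1), where 16.5% of all genes rose and 17.3% fell, and the median was -0.08.

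Sema3c rose in 2MUT cells from 153 ± 13.0 to 574 ± 10.2 RPM (log2 fold change 1.90, limma adjusted p = 2.9e-07). With 2-HG it fell from 381 ± 40.7 to 246 ± 4.34 RPM (log2 fold change -0.62, limma adjusted p = 0.00143). The difference of these changes was 2.52 (SE 0.13, limma adjusted p = 2.0e-08), the same direction as that of Nrp2. In 2MUT cells Sema3a, a ligand of Nrp1, fell by 0.69 on the log2 scale and the receptor subunit Plxna1 rose by 0.62.

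The hypoxia-inducible factors (HIF) activate Vegfa transcription, and the prolyl hydroxylases of the Egln family mark their alpha subunits for destruction. In 2MUT cells 3 of 8 tested genes of this list rose and the other 5 did not pass, beside 16.5% of all genes higher. The number that rose was 1 without Control replicate 2 or without 2MUT replicate 1, and 1 gene was called lower without Control replicate 1. Hif1a rose from 81.3 ± 4.15 to 252 ± 17.5 RPM (log2 fold change 1.62, limma adjusted p = 1.3e-06), Arnt2 by 0.55 and Egln1 by 0.47. Vegfa in the same libraries gave the log2 fold change of -0.18 above. These are RNA levels, and the paper also reports more Hif1α protein in mutant cells by Western blot. A link of these genes to Vegfa was not tested. The call of Arnt2 was lost without Control replicate 1 or 2 or 2MUT replicate 1 or 2 (adjusted p from 0.0597 to 0.112), and that of Egln1 without Control replicate 2 or 2MUT replicate 1 or 3 (adjusted p from 0.0624 to 0.119). The unmoderated test lost both (adjusted p = 0.0609 for Arnt2 and 0.181 for Egln1). With 2-HG 3 of 9 fell and 6 did not pass, beside 16.7% of all genes lower, and 1 fell without 2-HG(-) replicate 1, 2-HG(-) replicate 3 or 2-HG(+) replicate 1. Those that fell included Arnt, the partner subunit of the alpha factors, with a log2 fold change of -0.46. That call was lost without 2-HG(-) replicate 1 or 3 or 2-HG(+) replicate 1 (adjusted p from 0.0546 to 0.0927) and under the unmoderated test (adjusted p = 0.107).

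Of the genes that carry the signal inside the cell, 10 of 34 rose and 3 fell in 2MUT cells (median 0.18), and 6 of 35 rose and 4 fell with 2-HG (median -0.02). Of all genes 16.5% rose and 17.3% fell with 2MUT and 16.1% rose and 16.7% fell with 2-HG, so the 2-HG counts stood near or below the background. With 2MUT the number that rose was 6 without 2MUT replicate 1 and 5 without 2MUT replicate 3, and the number that fell was 1 without Control replicate 2. With 2-HG the number that fell was 2 or fewer without 2-HG(-) replicate 1, 2-HG(-) replicate 3 or 2-HG(+) replicate 2. Ptgs2, the inducible cyclooxygenase, rose in both, from 31.8 ± 3.22 to 98.8 ± 14.6 RPM with 2MUT and from 13.9 ± 0.737 to 24.2 ± 3.51 RPM with 2-HG. The adaptor Shb rose by 0.81 and the kinase Mapk3 fell by 0.72 on the log2 scale with 2MUT. With 2-HG Pik3r1, the regulatory subunit of phosphoinositide 3-kinase, fell by 0.64. That call was lost without 2-HG(-) replicate 3 (adjusted p = 0.0542) and under the unmoderated test (adjusted p = 0.112).

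Of the genes that bind or release VEGF or handle its receptors, 7 of 16 rose and 3 fell in 2MUT cells (16.5% and 17.3% of all genes), and 2 of 17 rose and 8 fell with 2-HG (16.1% and 16.7% of all genes). With 2-HG, 5 fell without 2-HG(-) replicate 3, and 1 rose without replicate 2 or 3 of either group. The medians were 0.22 and -0.33. Mmp9, a protease that frees matrix-bound VEGF, fell with 2-HG from 11.2 ± 1.47 to 1.69 ± 0.551 RPM (log2 fold change -2.19, limma adjusted p = 2.6e-05). Dab2, an endocytic adaptor, fell by 1.28 and the heparan sulphate proteoglycan Gpc1 rose by 0.77 on the log2 scale. With 2MUT, Adamts1, a protease that can bind Vegfa, fell by 1.23, the phosphatase Ptprj rose by 1.04 (adjusted p = 0.0019, and 0.0609 under the unmoderated test) and the matricellular protein Cyr61 by 0.67.

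**Figure D4:**
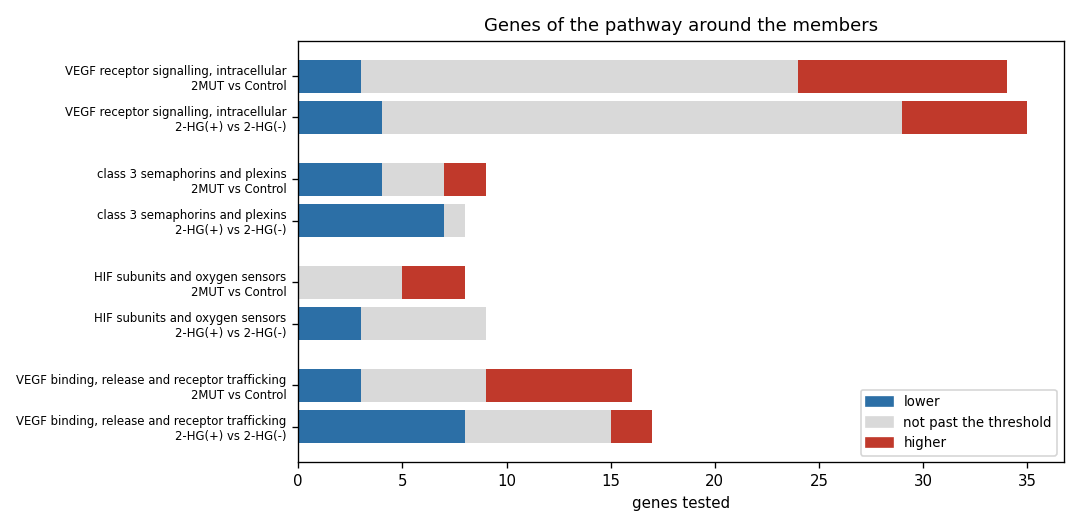
Number of tested genes (horizontal axis) called lower (blue), not past the threshold (grey) and higher (red) in each pathway list and comparison. Of the semaphorins and plexins 7 of 8 are lower with 2-HG (16.7% of all genes; 3 of the list without 2-HG(-) replicate 1 or 3), and of the HIF list 3 of 8 are higher with 2MUT (16.5% of all genes; 1 without Control replicate 2 or 2MUT replicate 1).

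Fibroblast markers moved with these results. Of 9 tested in each experiment, 7 fell with 2MUT and 5 fell with 2-HG, where 17.3% and 16.7% of all genes fell. In each experiment 1 rose (16.5% and 16.1% of all genes), a count that with 2MUT was 2 without Control replicate 3 and was lost without 2MUT replicate 3. Their summed level ran from 15040 to 17010 RPM in Control and from 13378 to 13822 RPM in 2MUT, and from 21646 to 23290 RPM without and 15256 to 16280 RPM with 2-HG. The 7 macrophage markers summed to 20.5 to 24.1 RPM in Control and 43.6 to 54.5 RPM in 2MUT, mostly Cd14, and to 25.7 to 27.0 and 22.1 to 26.9 RPM without and with 2-HG. They did not move together with 2MUT. Mean Cd14 went from 12.2 to 38.5 RPM, and Csf1r, Itgam and Lyz2 were also higher. Mean Cd68 went from 9.25 to 6.62 RPM, and Adgre1 and Ptprc were also lower. The part of these shifts in the changes of the members was not tested.

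The 5 genes whose pattern was most like that of Vegfa were Lrrc59, Top1mt, Gm17296, Nop10 and Bccip, with Pearson r of 0.97, 0.97, 0.97, 0.97 and 0.96. Likeness was measured over the 12 libraries on log2(RPM + 1) less the mean of each table's control group, among 6717 genes of at least 10 RPM in both tables. The libraries of a group share their treatment, so r is a description here and has no p. Lrrc59 gave log2 fold changes of -0.34 with 2MUT and 0.92 with 2-HG, and Nop10 gave -0.08 and 0.57.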

How the data were processed

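RNA of 12 libraries was amplified with a targeted mouse transcriptome panel and sequenced. The authors deposited 2 tables of gene values as RPM (reads per 1000000 reads on genes), each library scaled to that total. Per the study's methods, reads were aligned with the Torrent Mapping Alignment Program (TMAP) to the mouse AmpliSeq transcriptome reference and counted and normalised per gene with the AmpliSeqRNA plug-in. A genome build is not given in the sources used here. Each value was a whole multiple of 1 read within 0.0006 RPM for 100% of values, so whole reads were recovered for the count alternatives.

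The members and lists were chosen with earlier results of these data known. Genes averaging at least 1 RPM over the 6 libraries of a table were tested on log2(RPM + 1) with limma 3.58.1 (mean-variance trend, R 4.3.3), with Benjamini-Hochberg adjustment over all genes and a threshold of 0.05. The difference of changes was a contrast over all 12 libraries. Ratios were tested by exact permutation, two-sided. The scripts were tested on simulated data. Named genes were all members, up to 3 genes per list and comparison that passed the threshold with the largest change (group mean of 10 RPM or more in the higher group), and the 5 most like Vegfa. A gene that this rule names is not reported here. Alternatives were edgeR 4.0.16 and DESeq2 1.42.0 on recovered reads, an unmoderated test, no trend, another added value (0.1 RPM), other filters (none, 10 RPM), other scalings (quantile, 75th percentile), a replicate block and leaving out each library. Cells with wild-type IDH2 were not analysed here.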

Additional observations from a re-analysis of the deposited data

Results flagged for a closer look

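The changes of 4 of the 7 tested members differed between the 2 experiments by a contrast over all 12 libraries. Each is given as the log2 change with 2MUT minus that with 2-HG. By the same test (limma, adjusted over 9595 genes), the changes of 39.4% of all genes tested differed. The difference was -0.90 for Vegfa (adjusted p = 0.00126), 1.43 for Vegfc (adjusted p = 2.7e-05), 1.36 for Figf (adjusted p = 0.0016) and 1.48 for Nrp2 (adjusted p = 5.3e-07). In the 2 experiments Vegfa gave -0.18 and 0.72, Vegfc -0.02 and -1.45, Figf 0.17 and -1.19 and Nrp2 0.46 and -1.02. Each of these 4 differences was called under all alternatives run for them and without any 1 library.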

How the results depend on the processing

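Of the members, Vegfc, Figf and Nrp2 with 2-HG and Nrp2 with 2MUT were called under all 10 alternatives and without any 1 library. The unmoderated test called 1 member in place of 2 with 2MUT and 3 in place of 6 with 2-HG. Of all 11065 genes it called 1021 higher and 1223 lower with 2MUT, in place of 1826 and 1915. Of all 10384 genes it called 1098 higher and 1139 lower with 2-HG, in place of 1668 and 1737. It lost Vegfb with 2MUT (adjusted p = 0.0935) and Vegfa, Nrp1 and Flt1 with 2-HG (adjusted p = 0.061, 0.0846 and 0.18), and of the named pathway genes Arnt2, Egln1 and Ptprj with 2MUT and Pik3r1, Plxnd1 and Arnt with 2-HG (adjusted p from 0.0609 to 0.181). Flt1 with 2-HG was also lost without a filter (0.0882) and under quantile normalization (0.0539), Arnt2 with 2MUT without a filter (0.0747) and Egln1 with 2MUT without a filter (0.0515) and without the trend (0.0856). Flt1 with 2MUT was gained with edgeR (0.0446), DESeq2 (0.0266) and quantile normalization (0.0462). The cause was not tested. Without 1 library, 1271 to 1926 of all genes tested were called higher and 1484 to 1880 lower with 2MUT. With 2-HG these were 1146 to 1745 and 1176 to 1580. The members called in the same fits numbered 2 to 3 with 2MUT and 4 to 6 with 2-HG. The sign turned within such ranges for values that were not called: Figf -0.091 to 0.35 and Vegfc -0.069 to 0.056 with 2MUT, Vegfb -0.50 to 0.010 with 2-HG and the difference for Flt1 -0.29 to 0.19. The difference for Vegfb was called without 2-HG(+) replicate 2 (-0.83, adjusted p = 0.025).

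With the replicate block, 3 members were called with 2MUT (Flt1 gained, adjusted p = 0.0184) and 4 with 2-HG (Flt1 at 0.0732 and Nrp1 at 0.055 lost). Of all 11065 genes this fit called 1911 higher and 1987 lower with 2MUT, in place of 1826 and 1915. Of all 10384 genes it called 1217 higher and 1286 lower with 2-HG, in place of 1668 and 1737. The replicate numbers did not pair the libraries, with correlations of same-numbered deviations of 0.0708, 0.0293 and 0.0319 with 2MUT and -0.457, -0.158 and 0.0572 with 2-HG. Between libraries of unlike number they ran from -0.138 to 0.0888 with 2MUT. With 2-HG they ran from -0.414 (2-HG(-) replicate 2 with 2-HG(+) replicate 3) to 0.48 (2-HG(-) replicate 2 with 2-HG(+) replicate 1).

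Over all 16 refits the pathway counts ranged as follows. Signalling genes with 2MUT numbered 4 to 11 higher (10 in the report) and 1 to 3 lower (3), and with 2-HG 0 to 6 lower (4). Semaphorins and plexins numbered 2 to 4 lower with 2MUT (4) and 3 to 7 lower with 2-HG (7). Genes of the HIF list numbered 1 to 3 higher with 2MUT (3) and 1 to 3 lower with 2-HG (3). Genes of VEGF binding numbered 4 to 7 higher with 2MUT (7), and 1 to 3 higher (2) and 5 to 10 lower (8) with 2-HG. Fibroblast markers with 2MUT numbered 0 to 2 higher (1), with the count moved in 8 of the 16 refits. Kdr, Flt4 and Pgf, at 0 to 2 reads a library, were below what this depth can compare. The ratios of members and their alternatives were chosen after seeing the data, and adding 1 RPM to both members moved the 2-HG difference in the log2 ratio of Vegfa over Vegfc from 2.29 to 2.17 and turned the sign of none of the 6.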
